A study of Mus musculus with 12 samples.

Results

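The mitosis genes are 41 mouse genes whose products condense and separate the chromosomes, drive entry into and exit from mitosis, build the spindle and divide the cell. They were listed by symbol for these functions, by a rule that uses no measured value, though earlier results of these data were known. They were found by their Ensembl identifiers in the count tables of 12 pancreatic neuroendocrine tumors (PanNETs). All 41 were among the 38924 identifiers listed, and all 41 passed the filter on low counts that left 16645 genes for the test. The list holds 2 genes of mitotic chromosomes, 6 of the CDK1-cyclin module, 3 of the anaphase-promoting complex and its substrates, 7 of the Polo and Aurora kinases with their partners, 7 of the kinetochore, 4 of the spindle checkpoint, 9 of spindle motors and microtubule proteins, and 3 of cytokinesis.

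The tumors arose in *RIP1Tag2* mice of the C57Bl6 strain, in which the rat insulin promoter drives the SV40 T antigens in pancreatic beta cells. All 3 groups carry this transgene, so the controls are tumors too, and the large T antigen binds the retinoblastoma proteins that restrain cell-cycle genes. Control mice received saline (4 tumors), another group received sunitinib, an inhibitor of VEGF and PDGF receptor kinases (4 tumors), and the last received rapamycin, an inhibitor of mTOR complex 1, together with sunitinib (R+S, 4 tumors). By the labels, treatment started at 15.5 weeks of age and ran for 4 days in each group. Tumors are named by the numbers in their labels: control tumors 1, 2, 3 and 4, sunitinib-treated tumors 5, 6, 8 and 12, and R+S-treated tumors 4, 5, 7 and 10. Values listed for a gene follow this order. Levels are in CPM, the reads on a gene scaled to a common library size after TMM normalization.

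Transcripts of mitosis genes rise late in the cell cycle, in G2 phase, and are removed or silenced after division, so that a tissue contains them mainly in its dividing cells. Many of these genes are switched by shared promoter elements, the CCAAT box bound by NF-Y and the cell cycle genes homology region (CHR) bound by the DREAM and MuvB complexes, with B-MYB and FOXM1 as activators in G2 phase. In a bulk tumor sample, fewer dividing cells and less of a transcript in each dividing cell cannot be told apart.

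Library totals lay between 31872342 and 44215054 reads on genes (median 38526164), and even *Pttg1*, the member with the lowest levels, stood at 5.83 CPM or more in every tumor. Sunitinib-treated tumor 6 stood apart: its log2 CPM over genes correlated at 0.872 to 0.895 with those of the other sunitinib-treated tumors, which correlated with each other at 0.957 to 0.978. The mean log2 CPM of 20 beta-cell genes was 6.78 in tumor 6 and at least 9.06 in every R+S-treated tumor and 9.38 in every control tumor, and *Ins2*, an insulin gene, stood at 784 CPM in tumor 6 against 10612 or more in the other 11 tumors. The labels carry a prefix that is shared by the 4 control tumors, by sunitinib-treated tumors 5, 6 and 8, and by R+S-treated tumors 5 and 7. They do not say what the prefix stands for, no prefix occurs in more than 1 group, and prefix and treatment cannot be told apart. Nothing in the labels says that the tumors of a group came from separate mice, so that the p-values below measure the spread between tumors.

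A part of the mitosis genes was lower in R+S-treated tumors than in each of the other groups, while under sunitinib alone no member passed the threshold. Against control, 19 of the 41 members in R+S-treated tumors were lower and 0 were higher at an adjusted p under 0.05 by edgeR's quasi-likelihood test, against 2.61% of all tested genes that were lower in this comparison. The median log2 fold change of the members was -0.86, and that of all tested genes was 0.01. The log2 fold change was negative for 40 members, from -1.48 for *Kif2c* and -1.47 for *Ube2c* to -0.53 for *Incenp* and *Mki67*. In 22 members every R+S-treated tumor lay below every control tumor, which was so for 11.9% of all tested genes. *Pttg1*, which encodes securin, had the only positive value.

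Against sunitinib-treated tumors, 16 of the 41 members were lower in R+S-treated tumors and 0 were higher by edgeR's test, with 4.58% of all tested genes lower. The median log2 fold change was -0.65 for the members and -0.02 for all genes, and 19 members did not overlap between the groups, against 9.73% of all genes. These 2 comparisons share the R+S-treated tumors. The members lower in both numbered 15, against 0.739% of all tested genes, namely *Cdk1*, *Ccna2*, *Ccnb1*, *Cdc25c*, *Ube2c*, *Plk1*, *Aurka*, *Birc5*, *Tpx2*, *Cenpa*, *Cenpe*, *Bub1b*, *Kif20a*, *Kif2c* and *Kif4*. *Nuf2*, *Bub1*, *Kif18b* and *Hmmr* passed the threshold against control tumors only, and *Ndc80* against sunitinib-treated tumors only. In 17 members, those 15 with *Ndc80* and *Racgap1*, all 4 R+S-treated tumors lay below the other 8 tumors, which was so for 4.30% of all genes tested.

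Between sunitinib-treated and control tumors, 0 of 41 members passed the threshold by edgeR or by DESeq2, and 0 had an unadjusted p under 0.05 by edgeR, in a comparison in which 4.48% of all tested genes changed and 19.5% had an unadjusted p under 0.05. The log2 fold changes ran from -0.59 for *Ccnb2* to 0.15 for *Mki67*. They were negative for 38 members and their median was -0.21, beside 0.03 for all genes. *Mki67*, *Cdk1* and *Ndc80* had values above 0. *Kif18b*, a kinesin that shortens astral microtubules, was the only member in which the 4 sunitinib-treated tumors lay below the 4 control tumors, which was so for 5.76% of all tested genes, and its adjusted p by edgeR was 0.272.

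**Figure D1:**
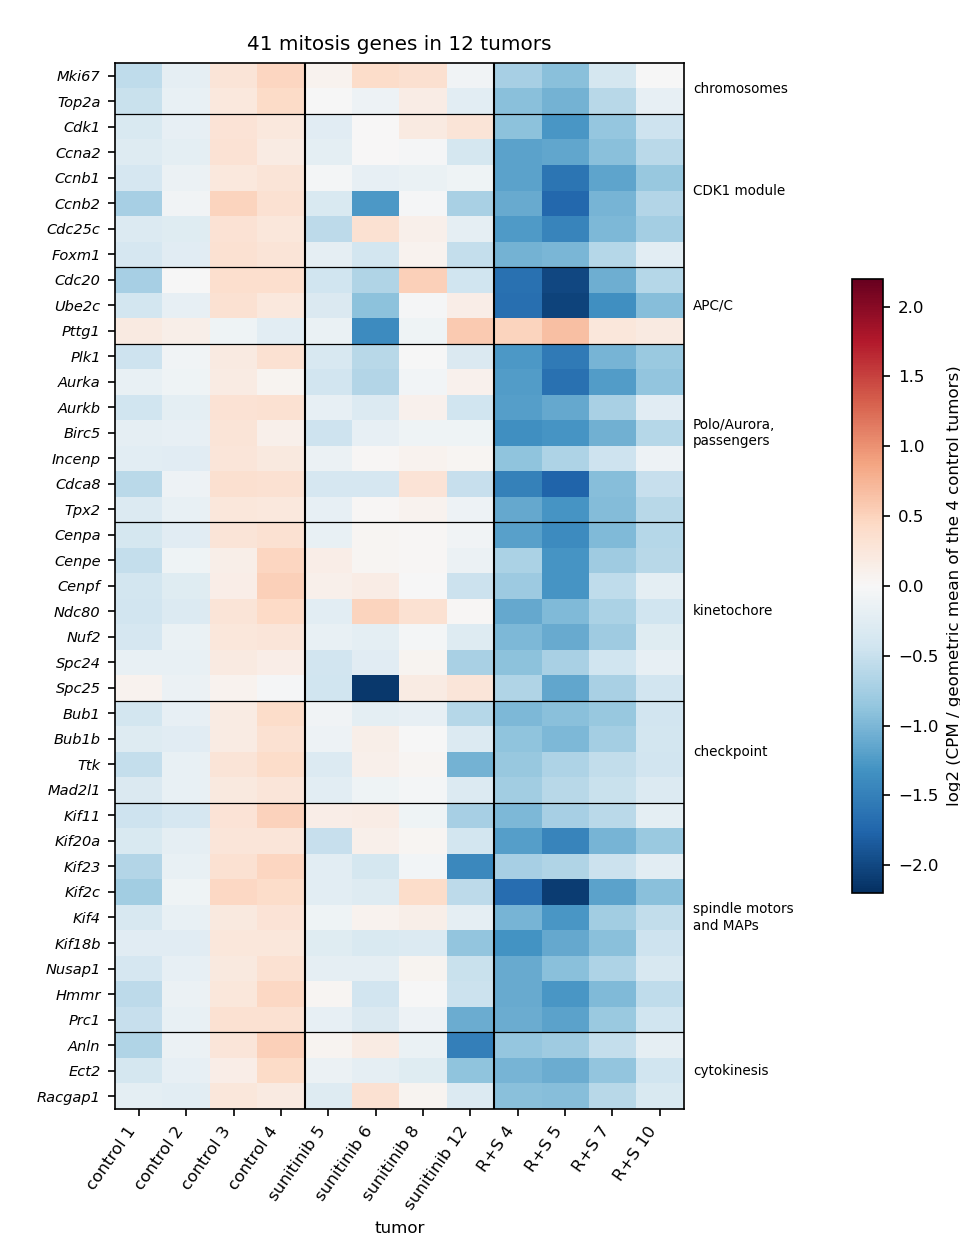
Heat map of the 41 mitosis genes (rows, grouped by role) in the 12 tumors (columns), with color for the log2 ratio of CPM to the geometric mean of the 4 control tumors. The R+S columns are blue in almost every row, most deeply in tumor 5, except in the row of *Pttg1*, and sunitinib-treated tumor 6 has a dark cell at *Spc25*.

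The members moved together from tumor to tumor among control and R+S-treated tumors, and less evenly among sunitinib-treated tumors. R+S-treated tumor 10 was the highest of its group in 40 members and tumor 5 the lowest in 25, and tumor 5 was the lowest of all 12 tumors in 24 members. Among control tumors, tumor 1 was the lowest in 36 members, and control tumor 4 was the highest of all 12 tumors in 23. The mean log2 CPM of the 41 members was 6.52, 6.74, 7.17 and 7.22 in control tumors, 6.71, 6.68, 6.95 and 6.54 in sunitinib-treated tumors, and 5.88, 5.75, 6.13 and 6.46 in R+S-treated tumors. The control and sunitinib ranges overlapped, and the highest R+S-treated tumor (6.46) was just below the lowest control tumor (6.52). Over the 12 tumors, the log2 CPM of a member correlated with the mean of the other members at a median r of 0.93, and 30 of the 41 were over 0.9. With each group centred on its own mean the median r was 0.87, so the shared movement was also seen among tumors that had the same treatment. This value pools the groups and does not show how closely the members moved in each of them. The correlations are given as a description over 12 tumors that differ in treatment.

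The number of members called in R+S-treated tumors depended on single tumors. Against control, it was 9 without control tumor 3, control tumor 4, R+S tumor 5 or R+S tumor 7, 8 without R+S tumor 4, 12 with tumors of 1 prefix summed within the treated groups, and 31 by DESeq2. Calls over all tested genes moved too. There, 435 were lower in the main fit, 185 to 257 in the fits with 9 members and 209 without R+S tumor 4. With prefixes summed 397 were lower, and 999 by DESeq2. The calls of 8 members, *Ccna2*, *Ccnb1*, *Plk1*, *Aurka*, *Birc5*, *Tpx2*, *Cenpa* and *Kif20a*, held whichever of the 8 tumors compared was left out. Against sunitinib-treated tumors the count fell to 0 without R+S tumor 4, 5 or 7 and in a fit of just those 8 tumors, and to 7 and 9 without sunitinib-treated tumors 8 and 12. In the fits with 0 members, 1, 0, 1 and 3 of all tested genes were lower, against 762 in the main fit, so the 0 is not particular to the members. At an unadjusted p under 0.05 by edgeR, 22, 22, 27 and 31 members were lower in them. The share of all tested genes at that level was not counted in those fits. In the main fit 31 members were lower at that level, against 17.6% of all tested genes. Without sunitinib-treated tumors 8 and 12, 457 and 390 of all tested genes were lower. Without both sunitinib-treated tumor 6 and R+S tumor 10, a choice made after seeing the data, 33 members were lower than in control and 22 lower than in sunitinib-treated tumors. In that fit 978 and 587 of all 16738 tested genes were lower. The median log2 fold change of the members stayed between -1.02 and -0.70 against control and between -0.80 and -0.55 against sunitinib-treated tumors when 1 tumor was left out.

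Markers of some other cell types also moved with treatment. Genes of pancreatic acinar cells, which surround the islets and make digestive enzymes, took 0.00425% to 0.0164% of the counts in control tumors, 1.39% to 5.17% under sunitinib and 0.378% to 1.95% under R+S, and 28 of the 29 that were tested were higher in each treated group by edgeR. The defining acinar gene *Cpb1* stood at 0.132 to 10.5 CPM in control tumors and at 382 to 5339 CPM in treated tumors. The summed level of 20 endothelial markers was 809 to 1068 CPM in control tumors, 98.4 to 157 CPM under sunitinib and 210 to 266 CPM under R+S, with 18 and 17 lower than in control by edgeR. Of the 16 pericyte and fibroblast markers 4 and 2 were lower in sunitinib-treated and R+S-treated tumors, of the 16 macrophage markers 3 and 1, of the 12 lymphocyte markers tested 0 and 1, and of the 8 erythroid genes tested 5 and 5. Of the 8 duct markers tested 3 and 0 were higher, and of the 20 beta-cell genes 0 changed in either group. Of all 16645 tested genes, 424 were lower and 321 higher under sunitinib, and 435 lower and 258 higher under R+S. The calls of 1 macrophage and 1 lymphocyte marker under R+S cannot be told from that share. With the mean log2 CPM of the acinar genes as a covariate, 0 members were lower than in control (median -0.39) and 1 lower than in sunitinib-treated tumors (median -0.73). In this fit 0 of all 16645 tested genes passed in either treated group against control, so the 0 is not a result about the members. Between the treatments 62 of all tested genes were lower. In the same fit, 33 members changed sign for sunitinib against control (median 0.33), and 0 passed. With the acinar genes left out of the tables before normalization, 20 members were lower than in control and 16 lower than in sunitinib-treated tumors. Of all 16597 genes tested there, 452 and 881 were lower. The mean log2 CPM of the acinar genes did not overlap between treated tumors (5.75 to 9.41) and control tumors (-2.76 to 1.04). In the fit with the acinar covariate, treatment and acinar level can therefore hardly be told apart against control. R+S-treated tumors had fewer acinar reads than sunitinib-treated tumors at the median, and the part of other cell types in the levels of the mitosis genes was not tested.

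The promoters are shown because the members moved together and because these elements are the known switch of the group. RefSeq promoters (GRCm38.p6, 250 bases before to 50 after the annotated start) were matched for 33 of the 41 members. Only the first promoter listed for each gene was read, which left 27025 of 32851 promoters. The CHR letters TTTGAA, read on both strands (TTCAAA on the other), occurred in 25 of the 33 (75.8%) and in 18.1% of all 27025 promoters read. The CCAAT letters (ATTGG on the other strand) also occurred in 25 (75.8%), against 37.9% of all promoters, and in 2 or more copies in 18 (54.5%), against 12.2%. Both were present in 22 (66.7%), against 7.12%. The variant CHR letters TTTAAA, which read the same on both strands, were in 9 (27.3%) against 13.2%, and the E2F letters TTTNNCGC (GCGNNAAA on the other strand) in 2 (6.06%) against 5.27%. Most of the 60 CCAAT matches, 58, began before the start, at a median of -66 bases, and 26 of the 31 TTTGAA matches lay within 100 bases of the start. Most of the window lies before the start, and positions were not counted in the other promoters. A match of letters is a description and not a bound site.

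Upstream sequences are printed for 7 members, each 120 bases, 5′ to 3′ on the gene's strand, with TTTGAA or TTCAAA and CCAAT or ATTGG in capitals. *Cdk1* (chr10:69352939-69353058, minus strand), *Cdc20* (chr4:118437353-118437472, minus strand) and *Top2a* (chr11:99024190-99024309, minus strand) carry both elements in this window. *Ccnb2* (chr9:70421555-70421674, minus strand) and *Ube2c* (chr2:164769778-164769897, plus strand) show repeated CCAAT boxes, with their TTTGAA matches outside it. *Spc25* (chr2:69206214-69206333, minus strand) and *Kif23* (chr9:61946800-61946919, minus strand) are shown because their levels followed the other members least closely among genes with both elements.
Cdk1: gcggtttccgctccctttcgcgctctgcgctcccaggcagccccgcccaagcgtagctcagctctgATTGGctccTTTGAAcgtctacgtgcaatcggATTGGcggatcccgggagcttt
Cdc20: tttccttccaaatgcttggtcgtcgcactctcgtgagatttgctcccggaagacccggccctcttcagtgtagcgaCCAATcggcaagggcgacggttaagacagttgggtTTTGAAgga
Top2a: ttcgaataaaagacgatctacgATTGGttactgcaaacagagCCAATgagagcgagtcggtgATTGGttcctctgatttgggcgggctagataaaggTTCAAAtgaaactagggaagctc
Ccnb2: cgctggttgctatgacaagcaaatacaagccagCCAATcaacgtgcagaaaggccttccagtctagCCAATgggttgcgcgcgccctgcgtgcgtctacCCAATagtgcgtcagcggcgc
Ube2c: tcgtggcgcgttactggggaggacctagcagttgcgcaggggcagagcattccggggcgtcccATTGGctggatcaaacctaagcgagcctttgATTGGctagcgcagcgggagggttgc
Spc25: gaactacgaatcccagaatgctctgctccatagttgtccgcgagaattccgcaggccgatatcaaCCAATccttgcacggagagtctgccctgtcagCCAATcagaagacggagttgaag
Kif23: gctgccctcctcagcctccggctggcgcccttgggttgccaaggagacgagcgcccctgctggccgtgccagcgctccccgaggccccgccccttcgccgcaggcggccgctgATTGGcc

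**Figure D2:**
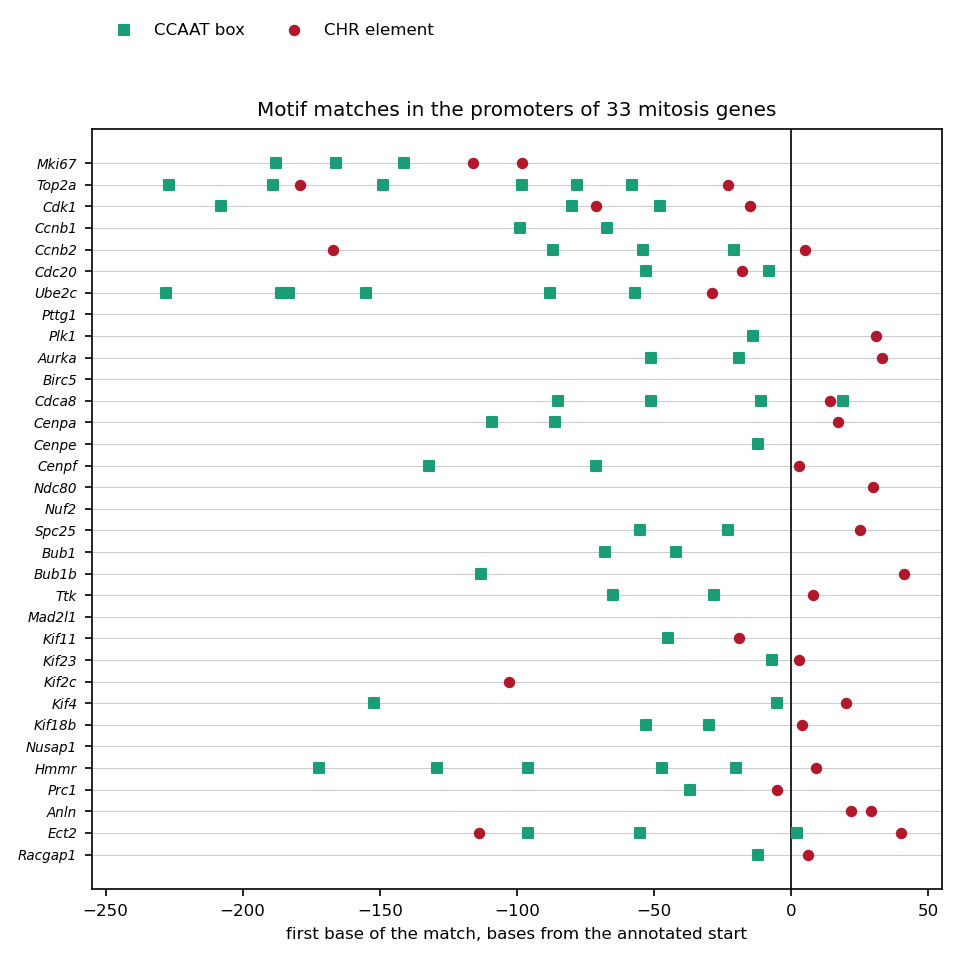
Positions of CCAAT boxes (green squares) and of the CHR element TTTGAA (red circles) in the promoters of 33 mitosis genes, as bases from the annotated start (line at 0), on either strand. CCAAT boxes lie before the start in 58 of 60 cases, and the rows of *Pttg1*, *Birc5*, *Nuf2*, *Mad2l1* and *Nusap1* hold neither element.

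Members with a TTTGAA match had a median log2 fold change of -0.87 under R+S against control (25 genes, -1.48 to -0.53), and those without one had -0.79 (8 genes, -1.19 to 0.40). *Pttg1*, with the only positive value, had none of the 4 motifs in its window. *Nuf2* also had none of the 4 and was lower in R+S-treated than in control tumors, with a log2 fold change of -0.78. *Birc5*, *Ccnb1* and *Cenpe* had TTTAAA and no TTTGAA, with -1.07, -1.19 and -0.87.

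The 6 genes of the CDK1 module were all at a negative log2 fold change in R+S-treated tumors, and 4 were lower in the test against both other groups. *Ccnb1*, the mitotic cyclin B1, was present at 63.5, 75.5, 96.6 and 99.9 CPM in control tumors, 80.0, 72.4, 75.0 and 77.3 CPM in sunitinib-treated tumors and 36.6, 27.2, 37.0 and 46.5 CPM in R+S-treated tumors. Every R+S-treated tumor was below all 8 others, and the 4 sunitinib-treated tumors lay within the control range. Its log2 fold change was -1.19 (SE 0.18) against control and -1.05 (SE 0.18) against sunitinib (edgeR adjusted p 0.00329 and 0.0233). *Cdk1*, the kinase that cyclin B1 activates, was measured at 124, 138, 192 and 184 CPM in control tumors, 132, 157, 179.5 and 191 CPM in sunitinib-treated tumors and 83.5, 64.1, 87.0 and 114 CPM in R+S-treated tumors. The R+S-treated tumors were again below all others, and the sunitinib-treated tumors lay within the control range. *Cdk1* changed by -0.87 (SE 0.20) and -0.92 (SE 0.20) on the log2 scale (edgeR adjusted p 0.0344 and 0.0295), and its call against control held in 2 of the 8 fits that left out 1 tumor.

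*Ccna2*, cyclin A2 of S and G2 phase, stood at 232, 243, 350.2 and 322 CPM in control tumors, 244, 283, 277 and 216 CPM in sunitinib-treated tumors and 124, 128, 149 and 188 CPM in R+S-treated tumors. No R+S-treated tumor reached the lowest control tumor or sunitinib-treated tumor, and the log2 fold changes were -0.96 (SE 0.18, adjusted p 0.0106 by edgeR) and -0.79 (SE 0.18, adjusted p 0.0305). *Cdc25c*, the phosphatase that activates CDK1, had 34.1, 34.8, 52.1 and 49.7 CPM in control tumors, 28.2, 52.8, 45.0 and 36.4 CPM in sunitinib-treated tumors and 17.7, 15.4, 21.1 and 24.9 CPM in R+S-treated tumors. Its R+S-treated tumors did not overlap with either group, at log2 fold changes of -1.11 and -1.04 (edgeR adjusted p 0.0194 and 0.0299). *Ccnb2*, cyclin B2, was at 62.8, 98.8, 146 and 132 CPM in control tumors, 82.6, 43.6, 103 and 63.7 CPM in sunitinib-treated tumors and 48.8, 31.7, 51.4 and 67.3 CPM in R+S-treated tumors. R+S tumor 10 was above control tumor 1, and sunitinib-treated tumor 6 was below 3 of the 4 R+S-treated tumors. At -1.14 (SE 0.32) against control, *Ccnb2* had an adjusted p of 0.0685 by edgeR, with a wider spread between tumors than *Ccnb1*. *Foxm1*, a transcription factor that activates G2 genes, was at 124, 134, 201 and 195 CPM in control tumors, 139, 121, 169 and 111 CPM in sunitinib-treated tumors and 77.4, 79.7, 103 and 136 CPM in R+S-treated tumors, and R+S tumor 10 lay among the control tumors. Its log2 fold changes of -0.72 and -0.44 did not pass the threshold (edgeR adjusted p 0.0954 and 0.200).

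Of the 3 genes of the anaphase-promoting complex, *Ube2c* was lower under R+S against both other groups, and *Cdc20* and *Pttg1* did not pass the threshold. *Ube2c*, the E2 enzyme of the complex, was at 131, 153, 217 and 203 CPM in control tumors, 138, 92.7, 169 and 192 CPM in sunitinib-treated tumors and 54.8, 41.9, 67.5 and 89.9 CPM in R+S-treated tumors. All R+S-treated tumors were below all others, with R+S tumor 10 (89.9 CPM) close to sunitinib-treated tumor 6 (92.7 CPM). In R+S-treated tumors its mean was 36.1% of the control mean, a log2 fold change of -1.47 (SE 0.28, edgeR adjusted p 0.0119), and against sunitinib it was -1.22 (SE 0.27, adjusted p 0.0311). *Cdc20*, the activator of the complex in metaphase, was at 98.3, 161, 210.3 and 211 CPM in control tumors, 120.4, 103, 235 and 119.8 CPM in sunitinib-treated tumors and 52.5, 40.4, 77.4 and 106 CPM in R+S-treated tumors. Control tumor 1 and R+S tumor 10 overlapped, and sunitinib-treated tumor 8 was the highest of all 12. *Cdc20* changed by -1.30 (SE 0.36) and -1.07 (SE 0.36) (edgeR adjusted p 0.0644 and 0.0795).

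*Pttg1*, whose product securin holds separase inactive until the complex destroys it, was low in all tumors, at 17.4, 16.6, 14.1 and 12.9 CPM in control tumors, 13.6, 5.83, 14.2 and 22.6 CPM in sunitinib-treated tumors and 21.2, 23.9, 17.9 and 17.4 CPM in R+S-treated tumors. R+S-treated tumors were the highest group apart from sunitinib-treated tumor 12, and R+S tumor 10 (17.40 CPM) was barely above control tumor 1 (17.37 CPM). The log2 fold change of 0.40 (SE 0.31) against control did not pass the threshold by edgeR (adjusted p 0.505). The two-sided exact permutation test gave p = 0.0286, the smallest that 4 tumors against 4 allow. *Pttg1* correlated at -0.55 with the mean of the other members over the 12 tumors and at -0.40 within groups, and it was the only member with a negative value.

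**Figure D3:**
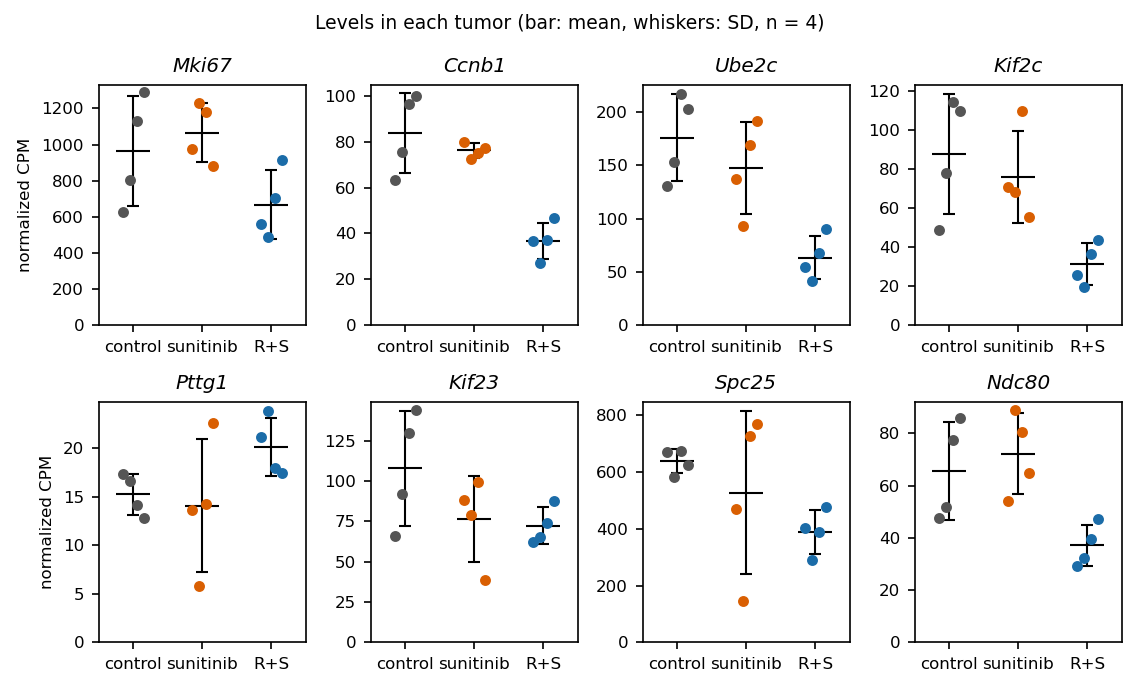
CPM of 8 mitosis genes in each tumor (points, left to right in the order of tumor numbers), with the mean (bar) and SD (whiskers) of 4 tumors per group and axes that start at 0. *Ccnb1*, *Ube2c* and *Kif2c* are lower in the 4 R+S-treated tumors than in the other 8, *Pttg1* is not lower, and *Spc25* is lowest in sunitinib-treated tumor 6 at 146 CPM.

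Among the Polo and Aurora kinases and their partners, 4 of 7 were lower under R+S against each of the other groups, and all 7 were lower at an unadjusted p under 0.05 in both comparisons, against 5.52% of all tested genes. *Plk1*, Polo-like kinase 1, was at 56.6, 73.1, 88.3 and 97.3 CPM in control tumors, 60.8, 50.5, 77.2 and 61.6 CPM in sunitinib-treated tumors and 32.2, 26.1, 37.8 and 43.9 CPM in R+S-treated tumors. *Aurka*, the spindle pole kinase Aurora A, was at 64.8, 67.8, 82.2 and 75.7 CPM in control tumors, 54.0, 46.0, 69.7 and 77.6 CPM in sunitinib-treated tumors and 30.8, 23.3, 30.8 and 39.4 CPM in R+S-treated tumors. In both genes the R+S-treated tumors were the lowest 4 of the 12, and tumor 6 stood lowest under sunitinib. *Plk1* fell by 1.17 (SE 0.21) against control and by 0.84 (SE 0.20) against sunitinib on the log2 scale (edgeR adjusted p 0.00847 and 0.0369). *Aurka* fell by 1.22 (SE 0.19) and 0.99 (SE 0.19), with 0.00433 and 0.0257. *Tpx2*, which activates Aurora A on the spindle, was at 140.4, 155, 206 and 204 CPM in control tumors, 153, 178, 183 and 160.3 CPM in sunitinib-treated tumors and 80.0, 70.8, 90.1 and 114 CPM in R+S-treated tumors, with R+S-treated tumors again lowest and log2 fold changes of -0.99 and -0.92 (edgeR adjusted p 0.00755 and 0.0252).

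The chromosomal passenger complex joins Aurora B with survivin, borealin and INCENP, and of its genes only *Birc5* passed the threshold against control tumors. *Birc5*, survivin, was at 74.3, 74.9, 104 and 91.9 CPM in control tumors, 62.4, 75.1, 79.7 and 80.4 CPM in sunitinib-treated tumors and 33.4, 34.7, 40.9 and 55.2 CPM in R+S-treated tumors. All R+S-treated tumors were below the other 8, the control and sunitinib ranges overlapped, and *Birc5* changed by -1.07 (SE 0.18, edgeR adjusted p 0.00590) and -0.86 (SE 0.18, adjusted p 0.0277). *Aurkb*, Aurora B itself, was at 60.1, 70.4, 101 and 102 CPM in control tumors, 71.7, 66.1, 86.5 and 60.0 CPM in sunitinib-treated tumors and 35.2, 37.1, 49.6 and 68.2 CPM in R+S-treated tumors. R+S tumor 10 exceeded control tumor 1, and the log2 fold change of -0.81 (SE 0.24) had an adjusted p of 0.0788 by edgeR. *Cdca8*, borealin, ranged from 73.4 to 142 CPM in control, 78.1 to 135 in sunitinib-treated and 32.6 to 78.2 CPM in R+S-treated tumors, at -1.14 (SE 0.30, edgeR adjusted p 0.0552) against control. *Incenp* had 90.2 to 129 CPM in control and 58.5 to 98.9 CPM in R+S-treated tumors, at -0.53 (SE 0.17, edgeR adjusted p 0.114). The members of 1 complex thus had point values from -1.07 and -1.14 to -0.53, and the differences between genes were not tested.

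Both genes of mitotic chromosomes had high levels and did not pass the threshold. *Mki67*, which encodes the proliferation marker Ki-67 of the chromosome surface, was at 628, 806, 1132 and 1292 CPM in control tumors, 973, 1229.6, 1179.8 and 884 CPM in sunitinib-treated tumors and 558, 488, 707 and 917 CPM in R+S-treated tumors. Sunitinib-treated tumors lay within the control range, R+S tumors 4 and 5 were below every control tumor, and R+S tumor 10 was above control tumors 1 and 2. The log2 fold changes were 0.15 (SE 0.25) under sunitinib, -0.53 (SE 0.25) under R+S and -0.68 (SE 0.25) between the treatments (edgeR adjusted p 0.781, 0.268 and 0.105). *Top2a*, topoisomerase II alpha, was at 548, 682, 899 and 1020.1 CPM in control tumors, 760.1, 709, 856 and 651 CPM in sunitinib-treated tumors and 403, 373, 501 and 674 CPM in R+S-treated tumors. Only R+S tumor 10 overlapped with the control tumors, above control tumor 1. *Top2a* changed by -0.69 (SE 0.23) against control, with an adjusted p of 0.117 by edgeR.

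Of the 7 kinetochore genes, 3 were lower under R+S against each of the other groups, with *Cenpa* and *Cenpe* in both comparisons. *Cenpa*, the histone H3 variant of centromeres, was at 66.8, 73.9, 107 and 111 CPM in control tumors, 78.4, 89.6, 88.9 and 82.9 CPM in sunitinib-treated tumors and 38.0, 33.6, 44.8 and 56.5 CPM in R+S-treated tumors. The R+S-treated tumors were the lowest 4, at log2 fold changes of -1.05 (SE 0.20, edgeR adjusted p 0.0113) and -0.98 (SE 0.19, adjusted p 0.0264). *Cenpe*, a kinesin that brings chromosomes to the metaphase plate, was at 106, 143, 167 and 212 CPM in control tumors, 167, 157, 154 and 139 CPM in sunitinib-treated tumors and 93.9, 61.8, 88.3 and 99.5 CPM in R+S-treated tumors. Its R+S-treated tumors did not overlap with the others, and it changed by -0.87 and -0.85 (edgeR adjusted p 0.0360 and 0.0349). *Cenpf*, a large protein of the outer kinetochore, was at 165, 182, 244 and 315 CPM in control tumors, 237, 246, 219 and 158 CPM in sunitinib-treated tumors and 126, 89.5, 149 and 188 CPM in R+S-treated tumors, and its R+S tumor 10 lay above 2 control tumors. At -0.71 (SE 0.25) against control it had an adjusted p of 0.144 by edgeR.

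*Ndc80*, *Nuf2*, *Spc24* and *Spc25* encode the 4 subunits of the NDC80 complex, which attaches microtubules to the kinetochore. *Ndc80* was at 47.8, 52.0, 77.4 and 86.0 CPM in control tumors, 54.3, 89.1, 80.5 and 65.0 CPM in sunitinib-treated tumors and 29.3, 32.5, 39.6 and 47.1 CPM in R+S-treated tumors. All R+S-treated tumors were below all 8 others, and sunitinib-treated tumors 6 and 8 were near the highest control tumor. *Ndc80* was lower than in sunitinib-treated tumors by edgeR (-0.96, SE 0.23, adjusted p 0.0355), while against control the value of -0.82 had an adjusted p of 0.0680. *Nuf2* was at 69.2, 81.1, 107 and 107 CPM in control tumors, 79.7, 77.3, 86.6 and 73.8 CPM in sunitinib-treated tumors and 44.9, 41.5, 52.1 and 74.2 CPM in R+S-treated tumors. R+S tumor 10 was above control tumor 1, and *Nuf2* changed by -0.78 (SE 0.19, edgeR adjusted p 0.0464) against control and -0.58 (0.0799) against sunitinib. *Spc24* had 39.5 to 50.7 CPM in control, 27.1 to 46.6 in sunitinib-treated and 23.7 to 39.4 CPM in R+S-treated tumors, so that R+S and control did not overlap, at -0.54 (SE 0.19, edgeR adjusted p 0.147).

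*Spc25* had a far higher level than its partners. Per length, as RPKM, the CPM divided by the merged exon length in kilobases, the mean level in control tumors was 199.9 for *Spc25*, 10.1 for *Ndc80*, 14.4 for *Nuf2* and 17.4 for *Spc24*. It was the highest RPKM of the 41 members, followed by 95.9 for *Mki67* and 91.1 for *Cdc20*, and *Pttg1* had the lowest at 7.62. In CPM, *Spc25* was at 670.1, 583, 673 and 623 CPM in control tumors, 467, 146, 724 and 768 CPM in sunitinib-treated tumors and 403, 289.6, 387 and 477 CPM in R+S-treated tumors. Sunitinib-treated tumor 6 was the lowest of all, far from the other tumors of its group, and the 4 R+S-treated tumors were below the 4 control tumors. The log2 fold change of -0.71 (SE 0.38) against control had an adjusted p of 0.322 by edgeR, and the correlation with the other members was 0.39. *G6pc2*, which encodes a glucose-6-phosphatase of islet cells, starts 4878 bases from *Spc25* on the opposite strand of chromosome 2 (GRCm38) and was looked at after these values had been seen. Its level was 29.2 CPM in sunitinib-treated tumor 6 and 707 to 1905 CPM in the other 11 tumors. Both genes, like the beta-cell markers, were thus lowest in tumor 6, and whether reads from the neighbor enter the *Spc25* count was not tested.

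Checkpoint genes keep the anaphase-promoting complex inactive until all chromosomes are attached, and 2 of the 4 passed against control. *Bub1b*, BubR1, was at 71.4, 73.6, 98.8 and 110.3 CPM in control tumors, 80.1, 95.6, 86.4 and 70.2 CPM in sunitinib-treated tumors and 47.4, 43.6, 51.8 and 65.9 CPM in R+S-treated tumors. The R+S-treated tumors were the lowest 4, at -0.76 (SE 0.18, edgeR adjusted p 0.0354) and -0.67 (SE 0.18, adjusted p 0.0438). *Bub1*, the kinase that recruits BubR1, was at 61.6, 72.5, 93.0 and 109 CPM in control tumors, 77.5, 70.8, 72.1 and 52.8 CPM in sunitinib-treated tumors and 41.3, 43.1, 46.1 and 61.4 CPM in R+S-treated tumors. Here R+S tumor 10 lay just below control tumor 1 and above sunitinib-treated tumor 12. *Bub1* changed by -0.81 (SE 0.20, edgeR adjusted p 0.0434) against control and by -0.51 (adjusted p 0.112) against sunitinib. *Ttk*, the kinase MPS1, was at 29.9, 38.7, 52.5 and 56.9 CPM in control tumors, 34.8, 46.4, 44.4 and 21.0 CPM in sunitinib-treated tumors and 24.1, 26.8, 29.6 and 32.4 CPM in R+S-treated tumors, and *Mad2l1*, MAD2, was at 86.0, 95.8, 124 and 128 CPM in control tumors, 91.0, 99.8, 104 and 87.0 CPM in sunitinib-treated tumors and 62.9, 69.8, 76.0 and 86.6 CPM in R+S-treated tumors. In both, R+S tumor 10 was above control tumor 1 and the other R+S-treated tumors were below all controls. Their log2 fold changes against control were -0.66 and -0.55 (edgeR adjusted p 0.176 and 0.0572).

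Of the 9 spindle genes, 5 were lower in R+S-treated than in control tumors and 3 lower than in sunitinib-treated tumors. *Kif2c*, the microtubule depolymerase MCAK, was at 48.9, 77.8, 115 and 109.8 CPM in control tumors, 70.8, 68.1, 109.9 and 55.5 CPM in sunitinib-treated tumors and 25.9, 19.6, 36.7 and 43.8 CPM in R+S-treated tumors. The R+S-treated tumors were the lowest 4, with a mean at 35.9% of the control mean. Its changes of -1.48 (SE 0.32) and -1.27 (SE 0.32) came with an edgeR adjusted p of 0.0268 and 0.0392. *Kif20a*, a kinesin of the central spindle, was at 104, 115, 157 and 158 CPM in control tumors, 92.2, 142, 135 and 99.4 CPM in sunitinib-treated tumors and 56.7, 48.3, 64.4 and 74.7 CPM in R+S-treated tumors. *Kif4*, the chromokinesin KIF4A, was at 67.2, 77.3, 99.8 and 106 CPM in control tumors, 80.9, 90.4, 94.1 and 75.4 CPM in sunitinib-treated tumors and 42.4, 35.6, 50.6 and 58.9 CPM in R+S-treated tumors. Neither gene overlapped between R+S-treated tumors and any other, at -1.13 and -0.90 against control and -0.94 and -0.86 against sunitinib (edgeR adjusted p 0.00842, 0.0183, 0.0282 and 0.0289).

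*Kif18b* was at 46.4, 46.2, 65.3 and 65.6 CPM in control tumors, 45.9, 43.6, 44.7 and 30.2 CPM in sunitinib-treated tumors and 22.2, 25.1, 29.0 and 40.2 CPM in R+S-treated tumors. The groups were ordered control, sunitinib and R+S, with sunitinib-treated tumor 12 alone below the highest R+S-treated tumor. The log2 fold change was -0.94 (SE 0.21, edgeR adjusted p 0.0319) under R+S and -0.44 (SE 0.21, adjusted p 0.272) under sunitinib. *Hmmr*, a spindle protein that binds hyaluronan outside the cell, was at 91.6, 126, 164 and 188 CPM in control tumors, 142, 103, 136 and 99.4 CPM in sunitinib-treated tumors and 63.8, 56.4, 69.6 and 93.1 CPM in R+S-treated tumors. Only R+S tumor 10 overlapped with control tumor 1, and the change was -1.01 (SE 0.23, edgeR adjusted p 0.0344) against control and -0.76 (0.0618) against sunitinib. *Kif11*, the motor Eg5 that separates the poles, was at 168, 179, 284 and 328 CPM in control tumors, 253, 256, 216 and 139 CPM in sunitinib-treated tumors and 115, 138, 152 and 198 CPM in R+S-treated tumors, and its R+S tumor 10 lay above 2 control tumors (-0.67, edgeR adjusted p 0.183). *Nusap1* and *Prc1*, which bundle microtubules, had 94.8 to 155 and 170 to 307 CPM in control and 57.0 to 96.6 and 107 to 179 CPM in R+S-treated tumors. Their log2 fold changes of -0.77 and -0.89 came with an edgeR adjusted p of 0.0535 and 0.0753.

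Of the genes of centralspindlin and cytokinesis, none passed the threshold against control tumors. By r over the 12 tumors, *Kif23* and *Anln* followed the other members less closely than any member except *Pttg1* and *Spc25*. Within groups this did not hold, with r of 0.78 for *Kif23* and 0.68 for *Anln* but 0.55 for *Aurka*. *Kif23*, the motor subunit MKLP1 of centralspindlin, was at 65.8, 92.1, 129.8 and 144 CPM in control tumors, 88.2, 79.2, 99.3 and 38.5 CPM in sunitinib-treated tumors and 62.2, 65.5, 74.1 and 87.7 CPM in R+S-treated tumors. Sunitinib-treated tumor 12 was the lowest of all 12 tumors, below the 4 R+S-treated tumors, and the R+S-treated tumors lay inside the sunitinib range. *Kif23* changed by -0.50 (SE 0.29) under sunitinib, -0.58 (SE 0.29) under R+S and -0.08 (SE 0.29) between them (edgeR adjusted p 0.374, 0.298 and 0.881). *Racgap1*, the partner of MKLP1 in centralspindlin, was at 243, 239, 333 and 323 CPM in control tumors, 231, 353, 293 and 229 CPM in sunitinib-treated tumors and 149, 147, 185 and 223 CPM in R+S-treated tumors. There the R+S-treated tumors were the lowest 4, at -0.69 (SE 0.19, edgeR adjusted p 0.0661) and -0.65 (SE 0.19, adjusted p 0.0593). *Anln*, anillin of the contractile ring, was at 73.2, 106, 140.4 and 167 CPM in control tumors, 120.5, 131, 105 and 41.1 CPM in sunitinib-treated tumors and 64.6, 67.7, 80.7 and 101 CPM in R+S-treated tumors, again with its lowest value in sunitinib-treated tumor 12. At -0.63 (SE 0.34) it had an adjusted p of 0.316 by edgeR. *Ect2*, which activates RhoA at the furrow, had 103 to 180 CPM in control, 72.6 to 123 in sunitinib-treated and 62.5 to 99.3 CPM in R+S-treated tumors, so that R+S and control did not overlap (-0.86, edgeR adjusted p 0.0501). Over the 12 tumors, r to the other members was 0.65 for *Kif23*, 0.67 for *Anln*, 0.92 for *Racgap1* and 0.92 for *Ect2*.

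**Figure D4:**
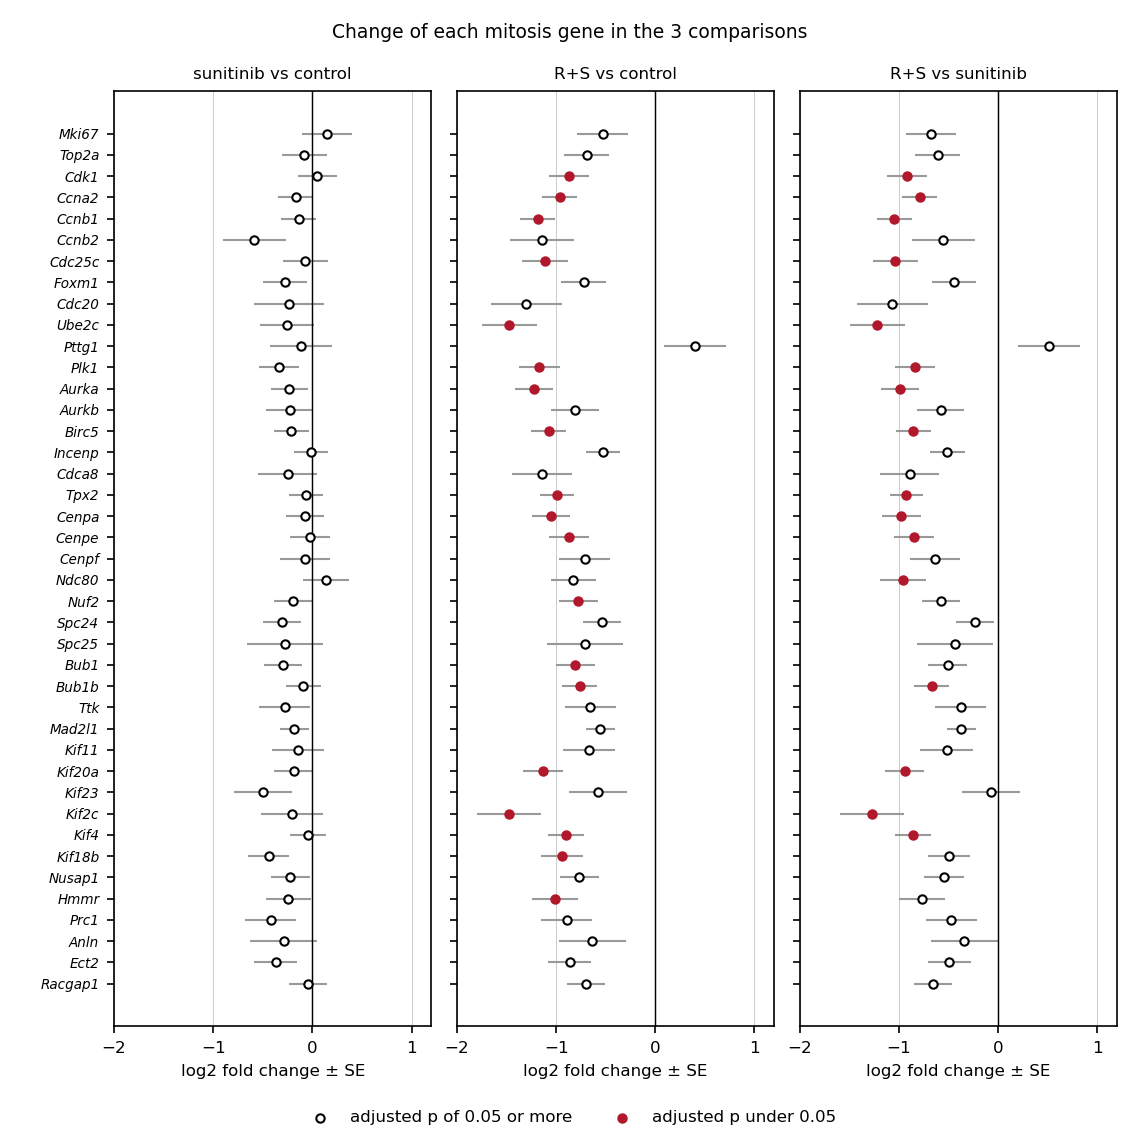
Log2 fold change (horizontal axis, with its SE as a bar) of each of the 41 mitosis genes in the 3 comparisons, with filled red points for an adjusted p under 0.05 by edgeR. No point is filled for sunitinib against control, 19 are filled for R+S against control and 16 for R+S against sunitinib, all left of 0, and *Pttg1* lies right of 0 in the last 2.

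Other genes of the same process that passed the test were also lower under R+S. Of 96 further mitosis genes (condensins, cohesin regulators, spindle and centromere proteins), 22 were lower and 0 higher in R+S-treated than in control tumors (2.61% of all tested genes were lower), and 19 were lower and 0 higher than under sunitinib (4.58%). The other 74 and 77 did not pass. The medians of their log2 fold changes were -0.62 and -0.44, and -0.13 under sunitinib alone with 0 called. *Dlgap5*, a spindle protein, changed by -0.95 (SE 0.16, edgeR adjusted p 0.00807) against control, and *Tacc3*, which stabilizes spindle fibers, by -0.84 (SE 0.14, edgeR adjusted p 0.0233) against sunitinib. Among 12951 expressed genes that are not members, those with the highest r to the mean of the members over 12 tumors were *Kifc1* (0.99), *Ncaph* (0.98), *Ckap2l* (0.98), *Ncapg* (0.97) and *Spdl1* (0.97), a spindle motor, a pair of condensin subunits, a spindle protein and a kinetochore protein.

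The genes of DNA replication act before mitosis. Of 52 S-phase genes, 0 passed under sunitinib by edgeR, beside 4.48% of all tested genes. An unadjusted p under 0.05 was found for 6 of them, beside 19.5% of all tested genes. The median log2 fold change of the 52 was 0.11, with 37 at a positive value. Against control, 3 were lower under R+S (*Dbf4*, *Tyms* and *Tk1*), beside 2.61% of all tested genes, with a median of -0.40. At an unadjusted p under 0.05 by edgeR, 23 of the 52 were lower, beside 10.9% of all tested genes. The log2 fold change was negative for 49 of them. Against sunitinib-treated tumors 16 were lower, beside 4.58% of all tested genes, with a median of -0.54. The difference between the mitosis and S-phase lists was not tested. The mean log2 CPM of the mitosis genes minus that of the S-phase genes was 0.77 to 1.06 in control tumors, 0.45 to 0.87 under sunitinib and 0.35 to 0.53 under R+S. Control and R+S did not overlap, and sunitinib-treated tumors lay across both, with tumors 6 (0.51) and 12 (0.45) inside the R+S range. Of 25 genes of the E2F, retinoblastoma and DREAM regulators, 0 passed in R+S against control or sunitinib against control. Against sunitinib, *Lin52* was higher in R+S-treated tumors (0.46, SE 0.10, edgeR adjusted p 0.0301) and *Lin37* lower (-0.62, SE 0.17, adjusted p 0.0490), both subunits of the MuvB core. Of all 16645 tested genes, 438 were higher and 762 (4.58%) lower in this comparison. With 1 call in each direction the list was near that share, and the calls are not a result about the list.

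**Figure D5:**
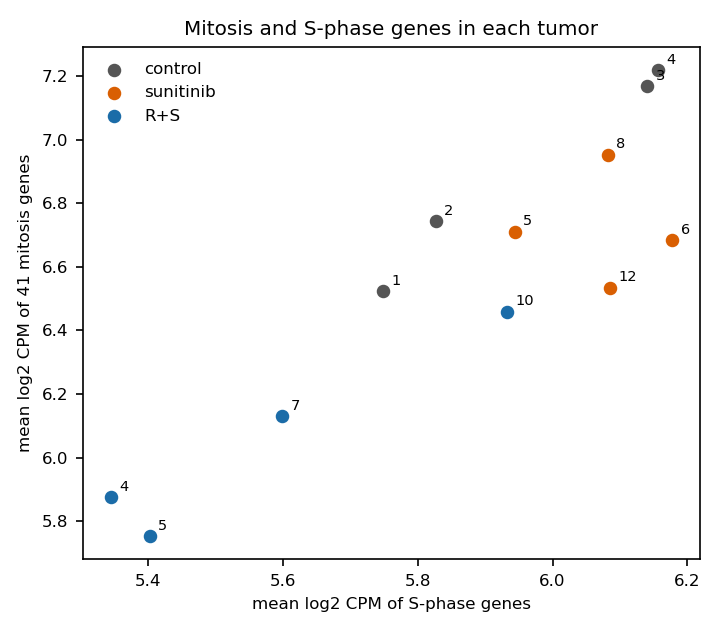
Mean log2 CPM of the 41 mitosis genes (vertical axis) against that of 52 S-phase genes (horizontal axis) in each of the 12 tumors, labelled by tumor number and colored by treatment. R+S-treated tumors 4, 5 and 7 are lowest on both axes, and sunitinib-treated tumors 6 and 12 lie below the control tumors of like S-phase level.

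Reads were assigned to genes only where they aligned to 1 place, and this bears on few members. The share of 50-base words that occur in transcripts of another gene was over 5% in 3 members, *Ccnb1* (23.4%), *Cdc20* (10.4%) and *Plk1* (6.56%), whose levels are therefore less certain, and under 5% in 38. Annotated exons on the opposite strand overlap those of 10 members, with the longest overlaps in *Kif20a* over 1271 bases (*Cdc23*), *Prc1* over 911 bases (*Rccd1*) and *Kif4* over 832 bases (*Pdzd11*), and also in *Cdc25c* (623), *Ube2c* (592), *Ccna2* (510) and *Plk1* (156), among others. Exons on the same strand overlap those of 2 members, *Foxm1* over 241 bases and *Top2a* over 122. The libraries keep strand, but whether the counting used it is not given in the sources used here.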

How the data were processed

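Poly(A) RNA libraries that keep strand were sequenced from 12 tumors, 4 per group. The authors deposited 1 table per tumor of raw read counts per Ensembl gene, not normalized. The submitters' processing notes name cutadapt 1.2.1, TopHat2 2.0.9, HTSeq 0.5.4p3 and GRCm38, and the annotation release and the strand setting of the counting are not given in the sources used here. The closing summary lines of each table were left out, reads aligned to several places are not in the counts, and 0 columns were left without a sample.

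Counts were normalized by TMM and tested in edgeR 4.0.16 (quasi-likelihood F-test, robust, R 4.3.3, limma 3.58.1) in 1 fit of all 12 tumors with 3 contrasts, after filterByExpr (minimum count 10, minimum total 15). Benjamini-Hochberg adjustment ran over 16645 genes per contrast, with a threshold of 0.05, and SEs were derived from the F statistic. Log2 CPM used a prior count of 2. The exact permutation test of single genes used 70 arrangements. Totals of 31872342 to 44215054 reads make counting error small for all members. The fit was tested on simulated data. No 2 tumors of a group agreed within sampling noise. Genomic features are from GENCODE (GRCm38) and promoters from RefSeq (GRCm38.p6).

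The members and all gene lists were chosen with earlier results of these data known. Values in every tumor are given for a list of 25 core members and for each other member with an adjusted p under 0.05, from the other lists up to 4 genes with the smallest p, and outside them the 5 genes with the highest r among those with an average log2 CPM of at least 0. *G6pc2* was added after its values were seen. The alternatives were DESeq2 1.42.0, 3 other normalizations, 2 other filters on low counts, only the 8 tumors compared, the acinar score as a covariate, prefixes summed, a minimum log2 fold change of 1, each tumor left out, and 2 choices made after seeing the data.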

Additional observations from a re-analysis of the deposited data

Results flagged for a closer look

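In 16 mitosis genes the change from control differed between the R+S and sunitinib treatments, since they were lower under R+S than under sunitinib by edgeR (adjusted p under 0.05). With shared controls this is the direct comparison of both treated groups, and the count was 0 in a fit of just those 8 tumors. In that fit 3 of all tested genes were lower and 0 higher.

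*Kif18b* in sunitinib-treated tumor 12 stood far from the others of its group, at 30.2 CPM against 43.6 to 45.9 CPM. On the log2 CPM scale the gap was 0.877 of the range of the group. Of 123 groups of 4 tumors tested for the members, 1 passed Dixon's critical value at the 95% level, and about 1 in 20 would by chance.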

How the results depend on the processing

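No member passed between sunitinib-treated and control tumors under any alternative run, and no member was called higher in any comparison. With the acinar covariate 0 of all tested genes passed against control in either treated group, so its 0 is not a result about the members. For R+S against control, the 19 lower members became 31 with DESeq2, 29 with only the 8 tumors compared, 0 with the acinar covariate, 12 with prefixes summed, 10 with a minimum log2 fold change of 1, and 33 without sunitinib 6 and R+S 10. Of all tested genes, 435 were lower in the main fit and 999, 1474, 0, 397, 303 and 978 in these. Leaving out 1 tumor gave 8 to 27 members, and 185 to 392 of all tested genes. For R+S against sunitinib, the 16 became 0 with only the 8 tumors compared, 1 with the acinar covariate, 5 with prefixes summed and 4 with the minimum fold change, and leaving out 1 tumor gave 0 to 17. Here 762 of all tested genes were lower in the main fit, and 3, 62, 609 and 253 in these fits. With 1 tumor left out it was 0 to 1691 of all tested genes. The acinar covariate moved the median log2 fold change to 0.33 for sunitinib against control and to -0.39 for R+S against control. It also turned the sign of 33 members under sunitinib, *Ccnb2* (1.23) and *Kif23* (0.10) among them, and of 3 under R+S, *Mki67* (0.13), *Ccnb2* (0.38) and *Cenpe* (0.035). With prefixes summed, *Kif23* (0.20) and *Anln* (0.0018) turned positive for R+S against sunitinib. With 1 tumor left out, up to 11 members changed sign under sunitinib, in the fit without control tumor 4. The value under sunitinib ran from -0.015 to 0.32 for *Mki67* and from -0.053 to 0.16 for *Cdk1*, and that of *Kif23* for R+S against sunitinib from -0.29 to 0.079. The cause of these moves was not tested. No paired analysis was possible because the groups compared share fewer than 2 replicate numbers.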
